A study of Rattus norvegicus with 8 samples.

Results

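Gad1, Gad2, Slc32a1 and Slc12a5, 4 genes of inhibitory transmission by GABA (gamma-aminobutyric acid), were followed in rat spinal cord after hemisection, in which the left or right side of the cord is severed. They were taken as the entries of the deposited table with the identifiers ENSRNOG00000000007 (Gad1), ENSRNOG00000018200 (Gad2), ENSRNOG00000015393 (Slc32a1) and ENSRNOG00000018111 (Slc12a5), and all 4 were among its 32883 Ensembl rat gene identifiers. The table does not pair identifiers with names, so these 4 names are those given with the selection rule. The samples were 8 bulk RNA libraries from Sprague Dawley rats, which are outbred. In the injured group, 4 libraries came from cord taken 4 days after hemisection at thoracic level 9, and 4 libraries came from rats without spinal cord injury. The tissue is upper lumbar by the series title but upper spinal cord by the tissue label. The sources used here give neither the sex and age of the rats nor any sham surgery of the uninjured ones, and do not tell whether 1 animal gave 1 library.

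GABA is the main fast inhibitory transmitter of the adult nervous system, and in the spinal cord it is released, often together with glycine, by local interneurons that restrain sensory relay neurons and motoneurons. Gad1 and Gad2 encode the 2 glutamate decarboxylases that make GABA from glutamate, Gad1 the form found throughout the cell and Gad2 the form attached to synaptic vesicles. Slc32a1 encodes the vesicular transporter that loads GABA and glycine into vesicles, and is therefore a marker of both kinds of inhibitory neuron. Slc12a5 encodes the potassium-chloride cotransporter KCC2, which keeps chloride low in mature neurons so that GABA and glycine inhibit the cell that receives them.

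Values are counts of unique molecular identifiers (UMIs, random tags that mark single RNA molecules), from libraries that read the 3' end of each transcript. Library totals ran from 112264 to 221177 UMIs in uninjured and from 195113 to 320199 in injured cord. Levels are given as UMIs per 1000000 of the library total (CPM), with 95% exact binomial (Clopper-Pearson) intervals for single libraries that cover counting error only. At this depth Gad1 was represented by 250 UMIs over the 8 libraries, Gad2 by 239, Slc32a1 by 459 and Slc12a5 by 1. The first 3 passed the filter on low counts, with between 5 and 87 UMIs per library, and 1 of the 4, Slc12a5, did not.

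On library totals, none of the 3 tested genes passed the test between injured and uninjured cord, although the fitted change of each was negative. Slc32a1 was called lower in 1 other fit, with the library number as a block and TMM scaling together. Slc32a1 had the most negative, at a fitted 0.694 of its uninjured level (95% interval 0.485 to 0.994), followed by Gad1 at 0.737 (0.416 to 1.30) and Gad2 at 0.813 (0.468 to 1.41). Across all 3073 genes tested, 3.51% were called at an edgeR quasi-likelihood adjusted p below 0.05, 3.42% higher and 0.0976% lower. Of the 3 members, 0 were called by this edgeR test in either direction, and 1, Slc32a1, had an unadjusted p under 0.05, as did 2.80% of the tested genes in the lower direction. DESeq2 and limma-voom also called 0 of the 3. Their median log2 fold change was -0.44, against 0.09 over all tested genes. Had library totals shown lower levels, readings such as fewer inhibitory neurons or less RNA per neuron could not be told apart in bulk cord.

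**Figure D1:**
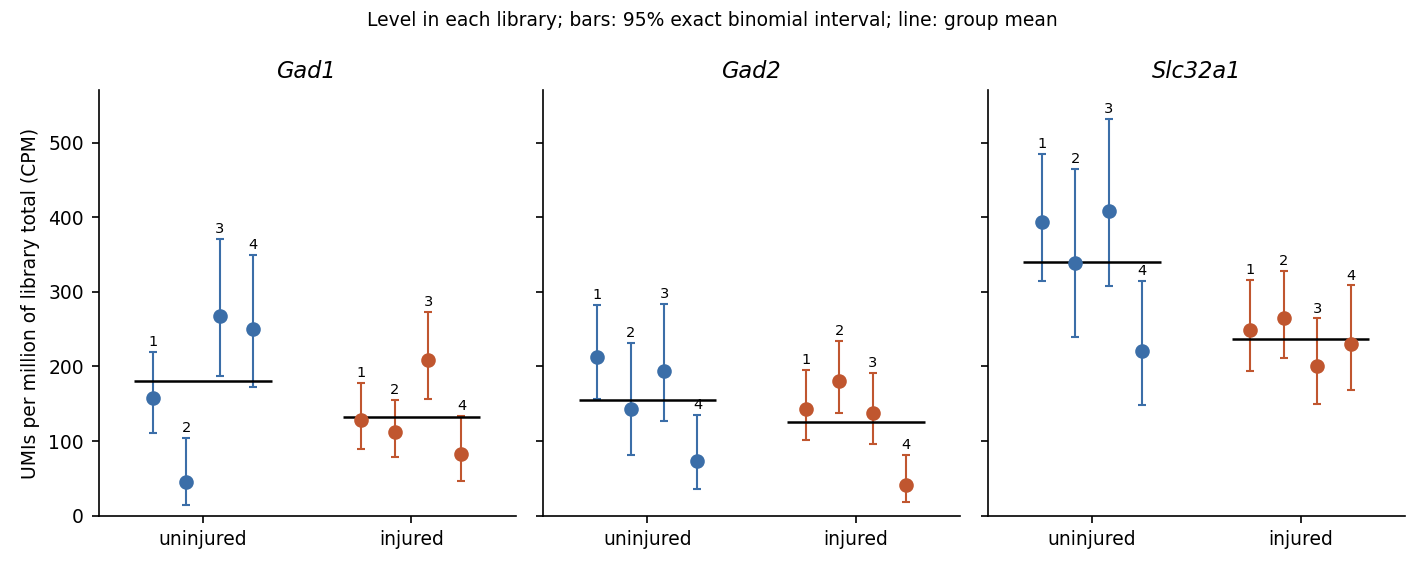
CPM on library totals for Gad1, Gad2 and Slc32a1 in each of the 4 uninjured and 4 injured libraries, marked with the library number, with 95% exact binomial intervals as bars and the group mean as a line. The groups overlap for each gene, and the highest 3 of the 4 uninjured Slc32a1 values, from 338 to 409 CPM, lie above all 4 injured ones.

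Gad1 was at 158, 44.5, 268 and 250 CPM in uninjured libraries 1 to 4, and at 128, 112, 209 and 82.0 CPM in injured libraries 1 to 4. The lowest and the highest of all 8 values were thus both uninjured, and the injured values lay between them. Uninjured library 2 held only 5 Gad1 UMIs, and its interval, 14.5 to 104 CPM, did not reach that of any other uninjured library, of which the lowest began at 110 CPM. The mean was 133 ± 54.2 CPM after injury and 180 ± 102 CPM without it (SD, n = 4), with a fitted log2 change of -0.44 (SE 0.39, edgeR adjusted p = 0.696). The difference of 47.2 CPM was smaller than the SD of either group. Without uninjured library 2 the log2 fold change was -0.73 (edgeR unadjusted p = 0.0432, adjusted p = 0.414), and without uninjured library 3 it was -0.20 (edgeR adjusted p = 0.920).

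Gad2 was at 212, 143, 193 and 73.5 CPM in uninjured libraries 1 to 4, and at 143, 181, 138 and 41.0 CPM in injured libraries 1 to 4. Library 4 was the lowest of its group in both, with 10 UMIs in the uninjured and 8 in the injured one. Apart from number 4, the injured values from 138 to 181 CPM lay within or just under the uninjured values from 143 to 212 CPM. On average Gad2 was at 126 ± 59.7 CPM after injury and 155 ± 62.1 CPM without it (SD, n = 4), with a fitted log2 change of -0.30 (SE 0.38, edgeR adjusted p = 0.813). Without injured library 4 the log2 fold change was -0.04 (edgeR adjusted p = 0.980), and without uninjured library 1 it was -0.08 (edgeR adjusted p = 0.967).

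Slc32a1 was at 393, 338, 409 and 221 CPM in uninjured libraries 1 to 4, and at 249, 265, 201 and 231 CPM in injured libraries 1 to 4. Uninjured libraries 1 to 3 lay above every injured library, while uninjured library 4 lay among the injured ones, so the groups overlapped. No overlap between groups, in either direction, was found for 8.98% of all tested genes. The injured libraries were close together, with a coefficient of variation of 11.7% against 25.1% in the uninjured libraries. Mean Slc32a1 was 237 ± 27.6 CPM after injury and 340 ± 85.4 CPM without it (SD, n = 4), with a fitted log2 change of -0.53 (SE 0.25, edgeR unadjusted p = 0.0465, adjusted p = 0.347). Leaving out 1 library gave log2 fold changes from -0.68 without uninjured library 4 (edgeR adjusted p = 0.139) to -0.43 without uninjured library 3 (edgeR unadjusted p = 0.130, adjusted p = 0.606). Without uninjured library 1 or injured library 3, the unadjusted p by edgeR was 0.123 and 0.116.

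Libraries of the 2 groups share the numbers 1 to 4, and libraries with the same number deviated from their group means together over all tested genes, so each comparison was also made within numbers. For Slc32a1 the injured library was at 0.634, 0.784 and 0.492 of the uninjured one in numbers 1 to 3 and at 1.05 in number 4. For Gad1 the ratios were 0.811, 2.52, 0.781 and 0.328 in numbers 1 to 4, and for Gad2 they were 0.673, 1.27, 0.714 and 0.558. Each gene was thus lower after injury in 3 of 4 numbers, but the exception was number 2 for both Gad genes and number 4 for the transporter. Two-sided exact paired permutation tests on CPM gave unadjusted p = 0.5 for Gad1, 0.375 for Gad2 and 0.25 for Slc32a1. The smallest p possible in such a test with 4 numbers is 0.125.

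With the number as a block, the log2 fold change of Slc32a1 was -0.52 (SE 0.19, edgeR adjusted p = 0.0749), which stayed above the threshold. With the block and TMM scaling, which sets the library scale from the bulk of the genes, Slc32a1 was called lower, with a log2 change of -0.65 (SE 0.18, edgeR adjusted p = 0.0231). That call was read against a background of 11.4% of tested genes called with the block and TMM scaling, of which the lower ones were 4.65% of tested genes. With the block on library totals, 11.2% were called, 2.15% of tested genes in the lower direction. TMM scaling without the block gave no call (edgeR adjusted p = 0.178). Gad1 and Gad2 were not called with the block, with edgeR adjusted p = 0.442 for each on library totals and 0.284 and 0.249 with TMM scaling.

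The change to TMM scaling lowered the median of all tested genes and the tested members by similar amounts. With the block, the scaling decided the call of Slc32a1. Scaled to library totals, the median log2 fold change of all tested genes was 0.09, and with TMM scaling it was -0.03. Relative to those medians, which take out that shift by construction, Slc32a1 was at -0.62 on both scales, Gad1 at -0.53 on library totals and -0.55 with TMM scaling, and Gad2 at -0.39 on both. On library totals 5.86% of tested genes had a lower log2 fold change than Slc32a1, 8.69% a lower one than Gad1 and 16.4% a lower one than Gad2.

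**Figure D2:**
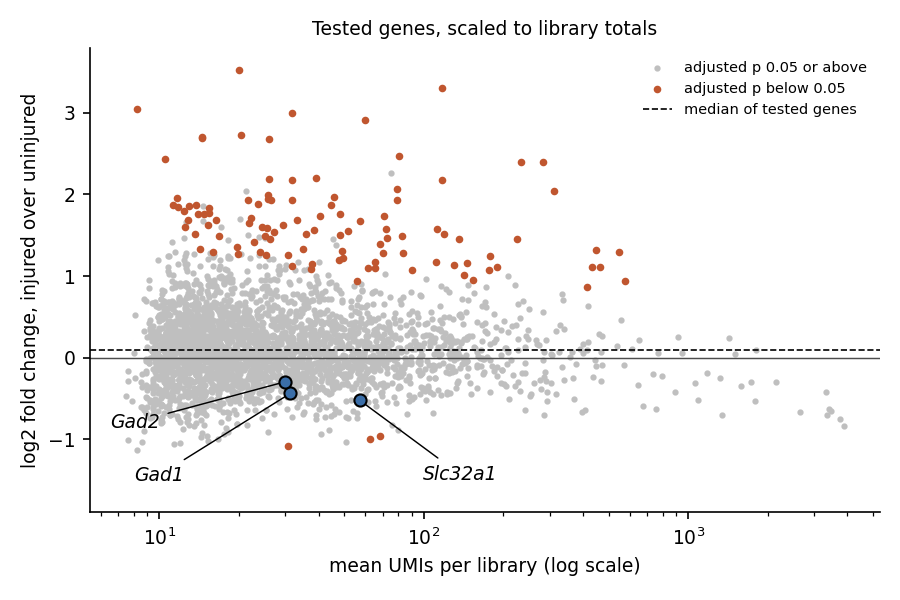
Log2 fold change of injured over uninjured cord against mean UMIs per library (log scale) for the 3073 tested genes, scaled to library totals, with called genes in orange, the members in blue and the median of all genes as a dashed line. Gad1, Gad2 and Slc32a1 lie below the dashed line, at -0.44, -0.30 and -0.53, among genes that were not called.

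The 3 tested genes differed in how much they varied between libraries. The biological coefficient of variation that edgeR fitted, which leaves out counting noise, was 0.349 for Gad1, 0.335 for Gad2 and 0.222 for Slc32a1, against a median of 0.238 over tested genes. Slc32a1 also had the highest mean count, 57.4 UMIs per library, against 31.2 for Gad1 and 29.9 for Gad2. The smaller standard error of Slc32a1, 0.25 against 0.39 and 0.38, went with both.

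**Figure D3:**
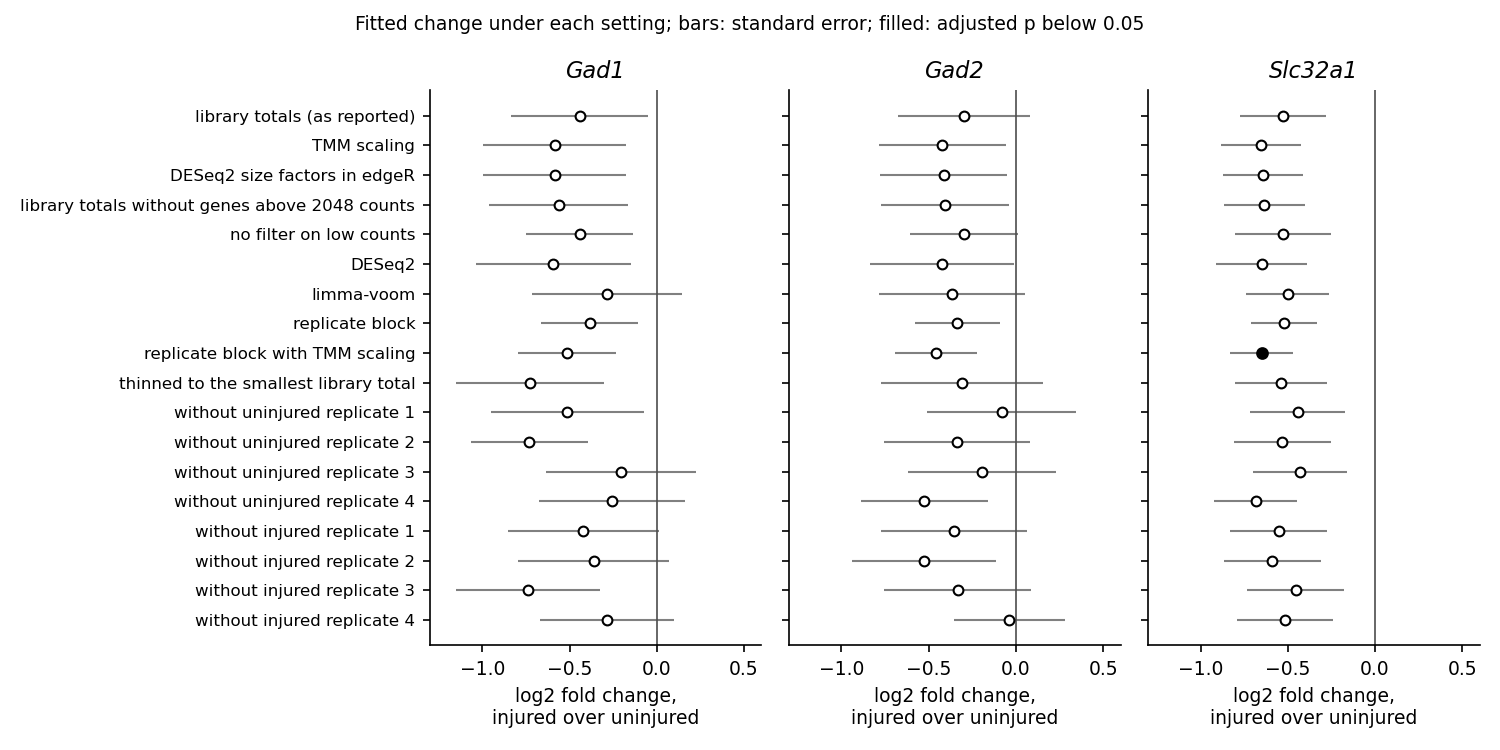
Fitted log2 fold change of injured over uninjured cord for Gad1, Gad2 and Slc32a1 under library totals and 17 other settings, with the standard error as bars and filled points where the adjusted p was below 0.05. All points lie below 0, from -0.74 to -0.20 for Gad1, from -0.53 to -0.04 for Gad2 and from -0.68 to -0.43 for Slc32a1, and 1 point, Slc32a1 with the replicate block and TMM scaling, is filled.

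Shares within a library do not depend on how libraries are scaled. Gad1 made up 42.7%, 23.8%, 58.1% and 77.3% of the combined Gad1 and Gad2 UMIs in uninjured libraries 1 to 4, and 47.3%, 38.3%, 60.2% and 66.7% in injured libraries 1 to 4. From lowest to highest the order of the numbers was 2, 1, 3 and 4 in both groups. The intervals of the extremes were apart in uninjured cord, with 8.22% to 47.2% for library 2 and 62.2% to 88.5% for library 4, while those of the injured libraries 2 and 4 overlapped at 28.5% to 48.9% and 44.7% to 84.4%. The mean share was 53.1% ± 12.7 in injured and 50.5% ± 22.7 in uninjured cord (SD, n = 4), and the shares were not shown to differ (exact permutation p = 0.829, two-sided, at a lowest attainable p of 0.0286). Within numbers 1 to 4 the injured share lay 4.61, 14.5, 2.16 and -10.6 percentage points from the uninjured one (two-sided exact paired permutation p = 0.625, where 0.125 is the smallest possible). Single libraries ranged from 23.8% to 77.3%, while the group means lay 2.66 percentage points apart.

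**Figure D4:**
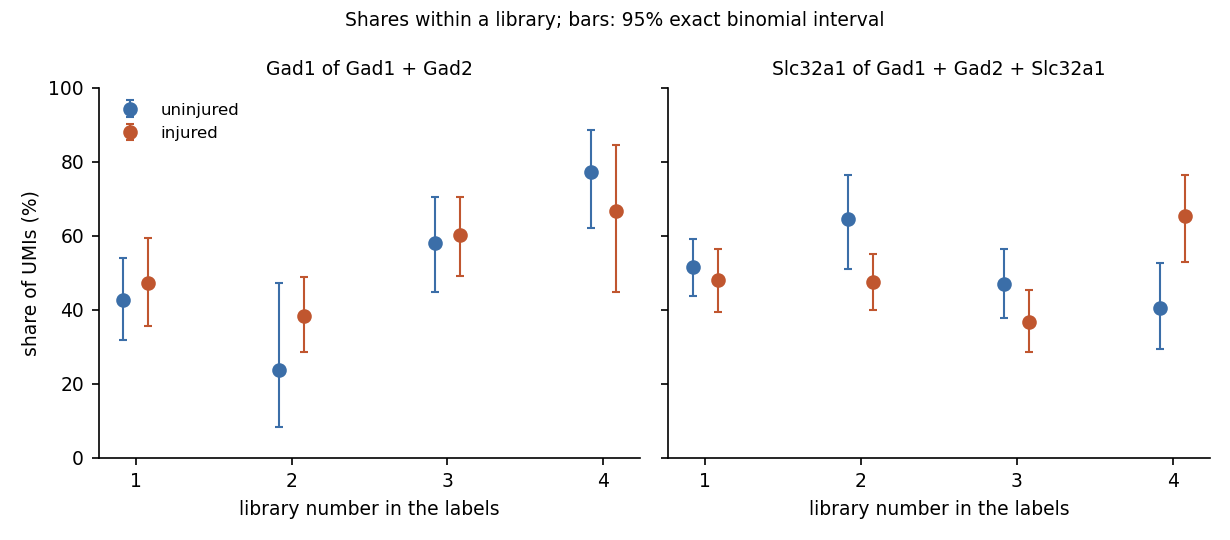
Gad1 as a percentage of Gad1 and Gad2 UMIs, and Slc32a1 as a percentage of Gad1, Gad2 and Slc32a1 UMIs, for each library number in uninjured and injured cord, with 95% exact binomial intervals as bars. The Gad1 share runs from number 2 to number 4 in the same order in both groups, and the mean shares of the groups differ by less than their SD.

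Slc32a1 made up 51.5%, 64.4%, 47.0% and 40.5% of the combined Gad1, Gad2 and Slc32a1 UMIs in uninjured libraries 1 to 4, and 47.9%, 47.5%, 36.7% and 65.2% in injured libraries 1 to 4. Here the order of the numbers was not shared, since number 4 was lowest in uninjured and highest in injured cord. The means were 49.3% ± 11.8 in injured and 50.9% ± 10.1 in uninjured cord (SD, n = 4, two-sided exact permutation p = 0.829, and 0.829 for both shares after adjustment over the 2). Within numbers 1 to 4 the injured share lay -3.59, -16.9, -10.3 and 24.7 percentage points from the uninjured one (two-sided exact paired permutation p = 0.875). A change of the transporter relative to the synthesis genes was not shown with these libraries.

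Summed over the 3 genes, the level was 764, 526, 870 and 544 CPM in uninjured libraries 1 to 4, and 520, 559, 548 and 354 CPM in injured libraries 1 to 4. Uninjured libraries 1 and 3 stood above all injured libraries, and uninjured libraries 2 and 4 lay among them. The sum is given as a description, with no test.

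Slc12a5 had 1 UMI in uninjured library 1 and 0 UMIs in each of the other 7 libraries. Over a group, that is 1 of 603934 UMIs in uninjured cord, or 1.66 CPM with an exact interval of 0.0419 to 9.23 CPM, and 0 of 1041860 UMIs in injured cord, with an exact interval up to 3.54 CPM (2.88 CPM at 3 counts). No fold change can be given, because both groups held fewer than 3 counts. The entry was one of 1437 with exactly 1 UMI over all libraries, beside 20271 with none. KCC2 is made by mature neurons throughout the cord, and Gad1, Gad2 and Slc32a1, which neurons also make, were counted in all 8 libraries. Whether the name given with the rule belongs to this identifier, and whether its gene model covers the 3' end that was read, was not tested. The 1 UMI can therefore not be read as the level of the chloride transporter's mRNA, nor can its change after injury.

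For the 2 members with the highest mean counts, the tested gene with the most similar profile over the 8 libraries was sought, by Pearson's r of log2 CPM. For Slc32a1 it was ENSRNOG00000015420 (r = 0.924), with 52 to 141 UMIs per library and a fitted log2 change of -0.51 (SE 0.23, edgeR adjusted p = 0.310). For Gad1 it was ENSRNOG00000031398 (r = 0.944), with 4 to 34 UMIs per library and a fitted log2 change of -0.23 (SE 0.39, edgeR adjusted p = 0.864). Each r is the highest among the tested genes outside the members, over 8 libraries that differed in depth and shared numbers, and is a description only. Among the members themselves r was 0.62 between Gad2 and Slc32a1, 0.18 between Gad1 and Gad2 and -0.06 between Gad1 and Slc32a1, again as a description over the same 8 libraries. In these counts Gad1 thus followed neither of the others closely, but with 5 to 53 Gad1 UMIs per library counting noise can lower r.

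Lists of the other genes of inhibitory transmission (GABA and glycine receptor subunits, plasma membrane transporters, GABA breakdown, other chloride transporters) and of cell type markers could not be applied, because 0 of the 32883 identifiers matched the RefSeq gene table of assembly GRCr8. The tissue label was for the same reason not checked against markers, and the neuron content of the libraries was not measured beside these results.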

How the data were processed

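The 8 libraries were made by CEL-Seq2 from frozen spinal cord, per the labels' protocols. The authors deposited raw UMI counts per Ensembl gene, not normalized, and HISAT2 2.0.4, HTSeq 0.6.0 and build Rnor_6.0 are named per the submitters' processing notes. Annotation release, UMI length and collapsing, strand and filters are not stated in any source used here, so reads of overlapping genes cannot be told apart. Groups came from the group label, replicate numbers from the titles, and 0 columns were left without a sample. No label says that libraries came from separate animals, and p-values reflect just the scatter among these 8 libraries and may be technical in part or whole.

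The analysis used edgeR 4.0.16 in R 4.3.3. Genes kept by filterByExpr (minimum count 10, minimum total 15) numbered 3073 and held 89.0% of all counts. Libraries were scaled to their totals, as the selection rule has it, and glmQLFit and glmQLFTest compared the groups, with Benjamini-Hochberg adjustment over all tested genes and a threshold of 0.05. Each SE is the size of the log2 fold change over the root of its F value. Alternatives were TMM and DESeq2 scaling, totals without genes above 2048 counts, no filter, DESeq2 1.42.0, limma-voom (limma 3.58.1), a block on the replicate number, thinning to 112264 UMIs and leaving out each library. All 12 within-group pairs of libraries were further apart than counting noise (chi-square per degree of freedom 2.21 to 4.91).

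Numbers 1 to 4 come from the titles, and no label calls the libraries paired. Same-number correlations of deviations from the group mean over the 3073 genes were 0.386, 0.296, 0.344 and 0.424, all over 0.1. The highest correlation with a different number was 0.24 for numbers 1 and 2, also over 0.1, and 0.05 for numbers 3 and 4. Deviations within a group are not independent, so these values do not establish pairing. Numbers were treated as pairs only in the fits with a block and in the paired permutation tests. The edgeR fit on library totals that is reported first had no block. The members and lists were chosen with earlier results of these data known. The named genes are the 4 members and the gene of most similar profile for the 2 with the highest mean counts.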

Additional observations from a re-analysis of the deposited data

How the results depend on the processing

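Each of Gad1, Gad2 and Slc32a1 kept a negative log2 fold change in 17 of 17 alternatives. All these alternatives reuse the same libraries, so their agreement in sign is not independent support for a decrease. Gad1 and Gad2 were called in 0 of them (edgeR, DESeq2 or limma-voom, lowest adjusted p 0.284 and 0.249, highest 0.920 and 0.980, lowest unadjusted p 0.0432 and 0.0666). Slc32a1 was called in 1 of 17, with the replicate block and TMM scaling (log2 fold change -0.65, edgeR adjusted p = 0.0231), and had adjusted p from 0.0749 to 0.635 in the others. The replicate block on library totals changed no call of the members. Leaving out 1 library gave log2 fold changes from -0.74 to -0.20 for Gad1, from -0.53 to -0.04 for Gad2 and from -0.68 to -0.43 for Slc32a1, with 0 calls by edgeR. Slc12a5 had 1 UMI in all, and 0 to 1 when a library was left out (0 without uninjured 1). Leaving out 1 library, an alternative chosen for the shares after seeing the data, as was the paired test, moved the difference of the Gad1 share from 2.66 percentage points to between -6.22 (without uninjured 2) and 11.6, and that of the Slc32a1 share from -1.54 to between -6.84 and 2.98 (without uninjured 2). The first also turned negative without injured 4 (-1.85) and the second positive without injured 3 (2.67), and none of these passed the exact permutation test. Slc12a5 was fitted only without the filter (edgeR adjusted p = 0.724) and by DESeq2, which gave no adjusted p.

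Over all genes, edgeR on library totals called 105 higher and 3 lower. The higher calls moved with TMM scaling (66), DESeq2 size factors (66), no filter (193), the replicate block (279), the block with TMM scaling (206) and thinning (67), and ranged from 61 to 152 without 1 library. The lower calls moved with no filter (7), DESeq2 (19), limma-voom (1), the block (66) and the block with TMM scaling (143), and ranged from 0 to 9 without 1 library (edgeR, 64 to 86 at an unadjusted p under 0.05 for the zeros). The causes were not tested. The fitted intervals give the range of changes that these libraries leave possible. No smallest detectable change was computed. Gad1 and Gad2 had mean counts above the median tested gene (31.2 and 29.9 against 22.8 UMIs) but larger SEs (0.39 and 0.38 against 0.33).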
